A study of Mus musculus with 3 samples.

Results

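The axon guidance ligands and receptors were followed across the cell types of the postnatal mouse lung. The list held every gene of the count tables whose symbol belongs to the semaphorins, plexins, Slits, Robos, netrins, Unc5 receptors, ephrins or Eph receptors, chosen by symbol alone. It came to 67 of the 28692 genes in the tables, with 65 different symbols because Ntn5 has 3 entries.

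Guidance cues were first described as signals that steer growing axons, and the same ligand and receptor pairs act on blood vessels, muscle, epithelium and immune cells. Semaphorins signal through plexins, the class 3 semaphorins mostly with a neuropilin coreceptor. Slits bind Robo receptors, netrins bind Unc5 receptors and DCC or neogenin, and ephrins on one cell bind Eph receptors on its neighbor, where ephrin-B2 and EphB4 are the textbook markers of arteries and veins. In the lung these families are known for their part in branching, in the alignment of vessels with airways and in the spread of the capillary bed.

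Whole lungs of 3 C57BL/6 mouse pups were taken at postnatal day 14 after room air from day 1 to day 14, digested to single cells and run on the 10x Genomics v3 chip, with 16000 cells loaded per mouse per the labels. The mice carry no transgene in the labels and there is a single condition, so every comparison here is between cell types within the same 3 lungs, and the labels number the mice 2, 3 and 4. Values of the individual mice are always given in that order. The unit is the unique molecular identifier (UMI), which counts a captured RNA molecule once, and levels are UMIs per 1000000 UMIs of the same cells (CPM), as mean ± SD over the 3 mice (n = 3). Each UMI is read near the 3′ end and is not scaled to length, so levels were compared between cell types and never between genes. A level mixes how many cells of a type express a gene and how much RNA each holds, and the sums do not separate them.

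The deposited tables held 9644 cells, of which 7642 passed the filter on cells, with 22476491 to 25192427 UMIs in each mouse before it. The libraries shared 2 to 5 cell barcodes between any pair. Clusters drawn without the guidance genes gave 957 endothelial (EC), 423 mural, 1117 stromal, 1304 epithelial and 3025 immune cells, and 816 cells fell outside these 5 classes. Of those outside, 454 formed an unnamed cluster at a median of 843.5 UMIs, led by Hpgd, Sox7 and Epas1. Its best marker list was arterial EC, at a mean log2 fold of 0.299, under the minimum of 1. These cells enter no EC value. Type names rest on markers that are not members, and "-like" is meant with each of them. The 59 arterial EC were led by Gja5 and Fbln2, which are on the arterial marker list, but also by Vwf and Lyve1. Vwf is on the venous list and Lyve1 on the lymphatic list. A further 106 EC were led by Cxcl12, Gja5, Gja4, Hey1 and Dll4. Of these genes Gja5, Gja4 and Hey1 are on the arterial marker list and Cxcl12 is on the Aplnr-type list. These EC were left unnamed because the best-scoring type had fewer markers among the leading genes than another EC type. Differences were tested with edgeR's quasi-likelihood test on UMIs summed per mouse and cell type, with Benjamini-Hochberg adjustment over all genes tested and a threshold of 0.05, and log2 fold changes are given with their SE. All p-values rest on 3 mice.

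Efnb2 (ephrin-B2), Plxnd1 and Unc5b stand for the arterial side of the split of artery and vein and Ephb4 for the venous side, and the 250 bases before each of their starts are shown so that the sequence can be set beside the levels that follow. The sequences are from RefSeq on GRCm38.p6 and run 5′ to 3′ toward the gene, from chr8:8661243-8661492 (minus strand) for Efnb2, chr10:60831582-60831831 (minus strand) for Unc5b, chr6:115995006-115995255 (minus strand) for Plxnd1 and chr5:137349859-137350108 (plus strand) for Ephb4. Capitals mark an ETS-type motif, CAGGAA or CCGGAA, on either strand.
Efnb2 promoter: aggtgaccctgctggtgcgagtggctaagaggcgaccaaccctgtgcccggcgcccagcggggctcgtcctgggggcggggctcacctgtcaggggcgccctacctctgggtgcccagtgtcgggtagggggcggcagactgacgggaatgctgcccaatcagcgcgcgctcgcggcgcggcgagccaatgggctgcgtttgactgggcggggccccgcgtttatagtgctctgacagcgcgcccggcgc
Unc5b promoter: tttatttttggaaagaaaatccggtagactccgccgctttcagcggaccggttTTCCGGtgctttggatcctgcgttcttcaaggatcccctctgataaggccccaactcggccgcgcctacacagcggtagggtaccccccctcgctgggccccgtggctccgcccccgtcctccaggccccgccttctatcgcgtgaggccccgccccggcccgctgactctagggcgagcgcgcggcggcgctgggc
Plxnd1 promoter: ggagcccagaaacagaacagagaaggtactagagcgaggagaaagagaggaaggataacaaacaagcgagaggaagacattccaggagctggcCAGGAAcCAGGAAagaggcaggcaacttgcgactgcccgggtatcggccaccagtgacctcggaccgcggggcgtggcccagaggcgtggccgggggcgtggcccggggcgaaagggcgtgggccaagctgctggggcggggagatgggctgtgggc
Ephb4 promoter: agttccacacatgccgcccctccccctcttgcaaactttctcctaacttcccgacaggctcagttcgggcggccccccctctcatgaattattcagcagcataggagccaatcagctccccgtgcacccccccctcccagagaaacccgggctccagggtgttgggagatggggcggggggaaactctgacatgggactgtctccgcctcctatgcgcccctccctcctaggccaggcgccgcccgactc

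The Plxnd1 promoter held 2 such motifs on its own strand, 157 and 150 bases before the start, and the Unc5b promoter held 1 on the opposite strand, 197 bases before it. Neither the Efnb2 nor the Ephb4 window held one. The RBPJ-type motif TGGGAA was in none of the 4 windows on either strand. Over all 32851 promoters of the reference 35.1% held an ETS-type motif and 21.6% an RBPJ-type motif, and over the 72 promoters of the 56 members with an entry the shares were 27.8% and 18.1%. A match is a description of the letters and says nothing about binding, and the absence of one covers these windows only.

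Of the 67 entries, 57 had at least 100 UMIs over the kept cells and 3 had none, these being Epha10, Epha6 and 1 of the Ntn5 entries. Together the members held 147782 UMIs. The 20 semaphorins held 59297 of them and all 20 passed 100 UMIs, and the 9 plexins held 29663. The 8 ephrins held 19747, the 14 Eph receptors 16396, the 5 netrin entries 7018, the 4 Robos 6835, the 3 Slits 5310 and the 4 Unc5 receptors 3516. Slit1, the third Slit, and Robo3 were among the 10 entries under 100 UMIs. The exons of 13 members overlap an antisense gene, and without knowing how strand was used in counting the reads of Ephb4 and Zan, Epha1 and Zyx, Unc5c and Gm15688, or Plxna4 and Plxna4os3 cannot be told apart.

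Endothelial and stromal cells held the highest level of most members. Among the 57 members with at least 100 UMIs, the highest class was EC for 20, stromal for 18, mural for 9, epithelial for 7 and immune for 3. In shares this was 35.1% for EC, 31.6% for stroma, 15.8% for mural cells, 12.3% for epithelium and 5.26% for immune cells, where all 13719 genes with at least 100 UMIs gave 25.6%, 18.5%, 13.9%, 14.6% and 27.4%. In 45 of the 57 the 3 mice of the highest class all lay above the 3 mice of the next class, which is 78.9% beside 60.4% of all these genes. The peaks were also counted by family, without a test between families. Of the 20 semaphorins 8 were highest in EC, 4 in epithelium, 4 in mural cells, 3 in immune cells and 1 in stroma. Of 8 plexins 5 were highest in stroma, 2 in EC and 1 in epithelium. The mice of the highest and next class overlapped for Plxna3, Plxnb1, Plxnb2, Sema3d and Sema4g. Plxnb2 was at 132.8 CPM in stroma and 127.8 CPM in epithelium. By type Plxnb2 was highest in interstitial macrophages at 280 CPM and Plxna2 in lymphatic EC at 169 CPM. Of the 7 ephrins 4 were highest in EC and 3 in stroma, and the 11 Eph receptors were spread over EC with 4, mural and stromal cells with 3 each and epithelium with 1.

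**Figure D1:**
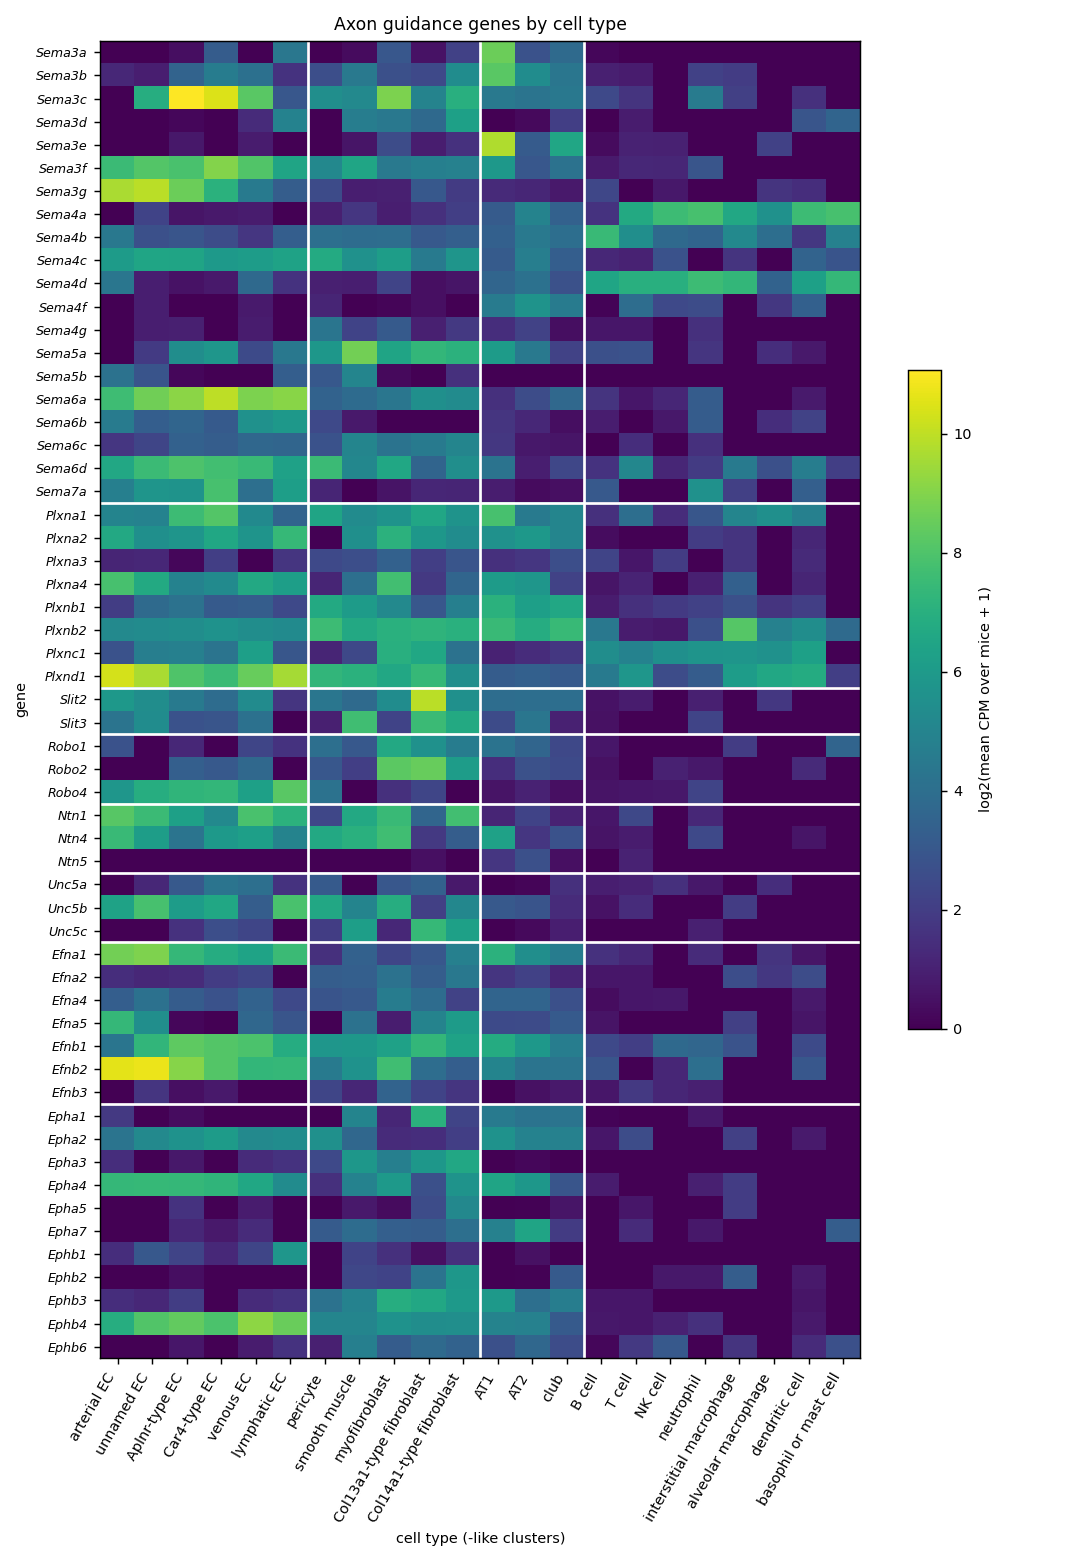
Heatmap of the 57 members with at least 100 UMIs (rows, by family) in 22 cell types (columns), colored by log2 of the mean CPM plus 1 over the mice. Sema3c was brightest in the Aplnr-type capillary column at 2148 CPM and darkest in the arterial column at 0 CPM. The immune columns were mostly dark except for Sema4a, Sema4b, Sema4d and a few plexins.

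Comparing each class with the mean of the other 4 asked which class each cue or receptor belongs to. Here and in later comparisons with a mean, the mean was taken over log2 levels. A class near 0 CPM pulls such a mean down, so the fold can exceed the ratio of the CPM values. The fit covered 13900 genes, among them 58 members, and 9 members had too few UMIs to be tested. In stromal cells 42 members were higher and 9 lower, where 30% of all genes tested were higher and 27.8% lower, and the median log2 fold change of the members was 1.46 against -0.05 over all genes. In EC 30 members were higher and 20 lower, beside 29.4% and 27.6% of all genes, with a median of 0.92 against -0.04. In mural cells 29 were higher and 11 lower, beside 27% and 23.8%, with a median of 0.64. The epithelial counts of 25 higher and 20 lower stood close to the shares of all genes, 36.8% and 31.2%. Immune cells went the other way, with 6 members higher and 44 lower, beside 37.8% and 38.1% of all genes, and a median of -4.09 against -0.05.

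**Figure D2:**
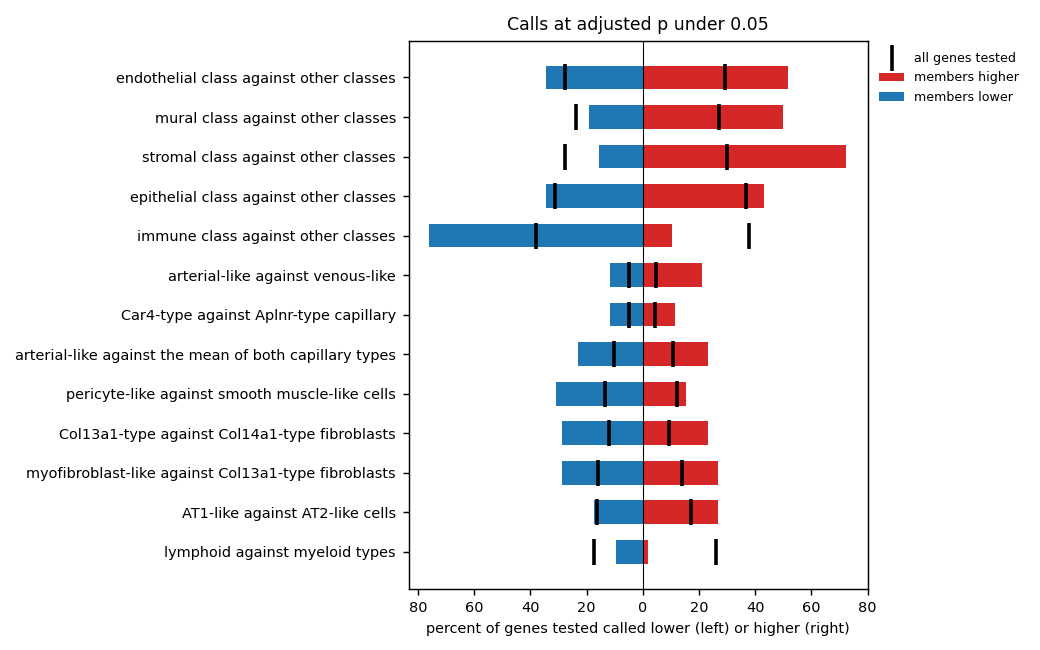
Bars of the percent of members and of all genes called higher or lower at an adjusted p under 0.05 in each comparison, starting at 0. Stroma had the largest share of members called higher, 72.4% of 58 against 30% of all genes, and immune cells the largest share called lower, 75.9% against 38.1%.

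The EC members with the largest differences were semaphorins and the endothelial Robo. Sema3g, a secreted class 3 semaphorin on chr14:31217860-31230352, was at 366, 349 and 392 CPM in EC of the 3 mice, and its mean in every other class was between 1.19 and 2.57 CPM. The EC of each mouse lay far above all other classes, with a log2 fold change of 7.30 ± 0.20 (adjusted p = 2.03e-15, edgeR quasi-likelihood). Robo4, a receptor known from endothelium, was at 149, 131 and 131 CPM in EC and at most 2.61 CPM elsewhere. Its difference was 6.27 ± 0.23 on the log2 scale (adjusted p = 9.45e-14, same test). Sema7a, a semaphorin anchored to the membrane, was at 60.6, 84.3 and 68.6 CPM in EC, above the 9.04 CPM of immune cells, the next class (6.01 ± 0.21, adjusted p = 4.72e-14). The transmembrane Sema6a followed at 568 ± 39.3 CPM (5.94 ± 0.13) and Sema3c, a secreted semaphorin on chr5:17574281-17730268, at 1369 ± 144 CPM in EC beside 351 CPM in stroma (5.14 ± 0.14).

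The endothelial receptors and ephrins named at the outset were also higher in EC than in the mean of the other classes. Ephb4 on chr5:137350109-137378669 was at 336 ± 9.88 CPM in EC and at 46.8 CPM in stroma, the next class (4.44 ± 0.07 on the log2 scale, edgeR adjusted p = 1.21e-17). Efnb2 was at 615 ± 7.56 CPM in EC and 145 CPM in stroma (4.14 ± 0.11, adjusted p = 2.03e-15). Plxnd1, the plexin that binds Sema3e, was at 406 ± 4.25 CPM in EC, 137 CPM in mural cells and 105 CPM in stroma (2.86 ± 0.09). Unc5b, a netrin receptor known from arteries, was not an EC gene alone, since stroma at 87.3 ± 6.28 CPM and EC at 86.9 ± 2.56 CPM overlapped. Against the log2 mean of the other classes Unc5b was higher in EC by 2.86 ± 0.14 and in stroma by 2.94 ± 0.13. Immune cells stood at -6.29 in the same kind of comparison, and their low level enters both of these means.

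Mural cells, the pericytes and smooth muscle around vessels and airways, led in a different set. Smooth muscle held 4136075 of the 4918334 mural UMIs. Sema5b, a transmembrane semaphorin, was at 29.9, 22.7 and 32.3 CPM in mural cells and had no UMI in epithelial or immune cells, so that its fitted fold is not a bound. The EphA receptor Epha3 was at 48.1 ± 5.02 CPM in mural and 39.3 ± 3.02 CPM in stromal cells and at most 0.735 CPM elsewhere. These classes sat close together, and both were higher than the mean of the others, by 6.21 ± 0.23 in mural cells (edgeR adjusted p = 3.17e-12) and by 5.75 ± 0.21 in stroma (adjusted p = 2.33e-12). The netrin receptor Unc5c was at 48.9, 68.9 and 70.6 CPM in mural cells beside 40.5 ± 8.84 CPM in stroma, and the mice of the classes overlapped. Slit3 was at 160, 175 and 182 CPM in mural cells and 48.3 ± 12.9 CPM in stroma (4.28 ± 0.17, adjusted p = 5.80e-13). Sema5a on chr15:32244810-32696341 was at 362 ± 17.8 CPM in mural cells and 105 ± 6.05 CPM in stroma (3.86 ± 0.06, adjusted p = 5.53e-18).

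Stroma led in Slit2 and in the Slit receptors Robo1 and Robo2. Robo2, a Slit receptor on chr16:73891839-74411825, was at 281, 276 and 322 CPM in stroma, and EC came next with 7.14 ± 2.53 CPM. The classes did not overlap, and the difference was 6.47 ± 0.10 on the log2 scale (edgeR adjusted p = 1.07e-17). Its ligand Slit2 was at 168, 272 and 194 CPM in stroma beside 27.5 ± 6.26 CPM in EC (4.63 ± 0.13, adjusted p = 4.94e-15). Mouse 3 was well above the others in stroma, and each mouse was above all other classes. Robo1 was at 68.5, 83.0 and 94.9 CPM in stroma and at most 11.3 CPM in any other class (4.54 ± 0.15). Netrin ligands were shared more widely. Ntn1 was at 153 ± 19.2 CPM in stroma, 123 ± 9.08 CPM in EC and 87.6 CPM in mural cells, and Ntn4, which is built into basement membranes, at 142 ± 8.54 CPM in stroma and 124 ± 22.6 CPM in mural cells, where the mice overlapped.

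In epithelium the leading members were again mostly semaphorins. Sema3e, a secreted ligand of Plxnd1 on chr5:14025276-14256689, was at 118, 82.2 and 164 CPM in epithelial cells and at most 3.86 CPM in the other classes (7.67 ± 0.24 on the log2 scale, edgeR adjusted p = 1.10e-14). Sema4f, a transmembrane semaphorin, was at 42.3, 44.2 and 46.6 CPM beside 3.40 CPM in immune cells (7.10 ± 0.19, adjusted p = 1.20e-15). The mice spread widely for Sema3e and hardly at all for Sema4f. Ntn5 (ENSMUSG00000070564), a little studied netrin, reached 4.07, 5.01 and 4.50 CPM in epithelium with 100 UMIs in all, and its exons overlap Sec1. Sema3a at 52.6 ± 19.4 CPM (6.62 ± 0.30) and the EphA receptor Epha7 at 71.4 ± 1.26 CPM (5.20 ± 0.13) completed the 5.

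Few members were called higher in immune cells, though others were counted there, such as Plxnc1 at 46.0 CPM. Sema4d, known as CD100 on lymphocytes, was at 92.9, 114 and 100.3 CPM in immune cells and 14.5 ± 1.22 CPM in epithelium (4.94 ± 0.14 on the log2 scale, edgeR adjusted p = 1.78e-15). Sema4a on chr3:88435959-88461182 was at 75.7, 73.0 and 75.0 CPM beside 25.3 ± 1.41 CPM in epithelium (4.69 ± 0.14, adjusted p = 2.43e-15). Sema4b was at 93.8, 124 and 103 CPM beside 19.2 ± 2.75 CPM (3.17 ± 0.09, adjusted p = 3.05e-15). In all 3 genes the immune value of each mouse was above every epithelial value. Sema7a at 2.59 ± 0.32 and Sema4f at 2.09 ± 0.39 were called higher as well, although their immune levels were only 9.04 and 3.40 CPM, with 3 of the other classes below 1 CPM for each gene. With cells thinned to 1000 UMIs Sema4f was no longer called (log2 fold change 0.72, adjusted p = 0.289).

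Within the endothelium, arterial and venous EC differed in 17 of the members tested, with the ephrin Efnb2 and the semaphorin Sema3g higher in arterial EC and the receptor Ephb4 and Sema3c higher in venous EC. The fit over types covered 12295 genes in 62 sums, with 52 members tested and 15 not. Between arterial and venous EC 11 members were higher and 6 lower, where 4.7% of all genes were higher and 5.08% lower. This was 21.2% and 11.5% of the members tested, and their median log2 fold change was -0.17 against 0 over all genes. The arterial side rested on 725006 UMIs from 18 to 22 cells per mouse, and the venous side on 1280547 UMIs from 106 cells.

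The ligand and its receptor split between artery and vein. Efnb2 on chr8:8617434-8661242 was at 1677, 1465 and 1609 CPM in arterial EC and at 111, 158 and 204 CPM in venous EC. The lowest arterial mouse lay far above the highest venous one, and the difference was 3.36 ± 0.22 on the log2 scale (edgeR adjusted p = 7.21e-17). It was counted in 59 of 59 arterial cells and in 64.0% ± 5.49 of venous cells, or in 60.9% and 14.5% with each cell thinned to 1000 UMIs, and the share in B cells, which should lack it, was 2.30% (0.537% thinned). Median depth per mouse was 7514 to 9093.5 UMIs in arterial, 7385 to 9890 in venous and 3839.5 to 4149 in B cells. The receptor Ephb4 ran the other way, at 108, 120.1 and 128 CPM in arterial and 587, 638 and 518 CPM in venous EC (-2.25 ± 0.17, adjusted p = 3.15e-15). No mouse overlapped between artery and vein for either gene.

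The semaphorin receptor Plxnd1 and the netrin receptor Unc5b were higher in arterial EC, and other receptors of these families ran in either direction. Plxnd1 on chr6:115954811-115995005 was at 1354, 1109 and 1438 CPM in arterial and 361 ± 8.34 CPM in venous EC (1.88 ± 0.16 on the log2 scale, edgeR adjusted p = 2.97e-14). Unc5b on chr10:60762593-60831581 was at 82.1, 100.1 and 67.8 CPM in arterial EC and at 11.3, 2.39 and 11.9 CPM in venous EC (3.28 ± 0.48, adjusted p = 9.61e-07). Neither gene overlapped between the types. The arterial values of Unc5b lay on both sides of the 86.9 CPM of EC as a class. By type its mean was highest in lymphatic EC at 237 CPM, followed by the unnamed EC at 229 CPM. Plxna4 was higher in arterial than in venous EC too (1.195 ± 0.229, edgeR adjusted p = 0.0001), but the plexin Plxnc1 was lower (-3.70 ± 0.67, adjusted p = 2.96e-05). The netrin receptor Unc5a, which was not tested, had 0 arterial and 20 venous UMIs, at least 3.77-fold lower in arterial EC. The ligands Ntn1 and Ntn4 were less distinct. Ntn1 was at 291 ± 24.8 CPM in arterial and 240 ± 49.9 CPM in venous EC, a difference of 0.31 ± 0.21 that missed the threshold (adjusted p = 0.501), and Ntn4, at 180 ± 83.7 and 75.1 ± 10.2 CPM, was called higher (1.29 ± 0.30, adjusted p = 0.00147) but no longer without mouse 3 (adjusted p = 0.0871) or with cells thinned to 1000 UMIs (adjusted p = 0.43). Slit2, Slit3, Robo1 and Robo4 did not pass in this comparison, and Robo4 stood at 54.8 ± 11.4 CPM in arterial and 77.4 ± 6.59 CPM in venous EC.

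Semaphorins separated arterial from venous EC in both directions. Sema3g was at 882, 732 and 792 CPM in arterial EC and at 6.80, 28.7 and 30.9 CPM in venous EC (5.21 ± 0.34 on the log2 scale, edgeR adjusted p = 3.15e-17). Sema3c had 0 UMIs in the 59 arterial cells, which allows a share of up to 5.085% of cells with a UMI and a level of up to 4.14 CPM, while venous EC held 265, 282 and 361 CPM. Its level was thus at least 73.0-fold lower in arterial than in venous EC, from 3 UMIs over the group, and this interval and floor cover counting error only. The named arterial and venous EC were separated for both genes but in opposite directions. The unnamed EC led by Gja5, Gja4 and Hey1 did hold Sema3c, at a level given below. Sema5b had 11 UMIs in arterial EC and none in venous EC, at least 6.48-fold higher (adjusted p = 0.00698), but missed the threshold without mouse 2 (adjusted p = 0.189) and without mouse 3 (adjusted p = 0.0889). Robo2 had none in arterial EC and 16 UMIs in venous EC, at least 3.02-fold lower (adjusted p = 0.0436), and leaving out any 1 of the mice gave adjusted p between 0.0907 and 0.224, and blocking on the mouse gave 0.0554. The stricter filter of 500 genes and 10% mitochondrial UMIs per cell gave 0.121 for Robo2 and thinning gave 0.648.

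Beside Efnb2, other ephrins differed between artery and vein as well. Efna5, an ephrin anchored to the membrane by a lipid, was at 123, 220.1 and 153 CPM in arterial EC and at 0, 21.5 and 14.3 CPM in venous EC (3.84 ± 0.39 on the log2 scale, edgeR adjusted p = 2.09e-10). Aplnr-type capillary EC held a single Efna5 UMI, a ratio of 850.0 with a counting interval of 149.7 to 33850, and Car4-type EC none, so that arterial EC were at least 74.8-fold above the latter. Efnb1, a transmembrane ephrin, ran against Efnb2, at 20.5, 28.0 and 7.14 CPM in arterial and 252, 251 and 238 CPM in venous EC (-3.74 ± 0.29, adjusted p = 3.20e-15). Efna1 was higher in arterial EC at 418 ± 25.7 CPM than in venous EC at 85.0 ± 9.45 CPM (2.33 ± 0.19).

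**Figure D3:**
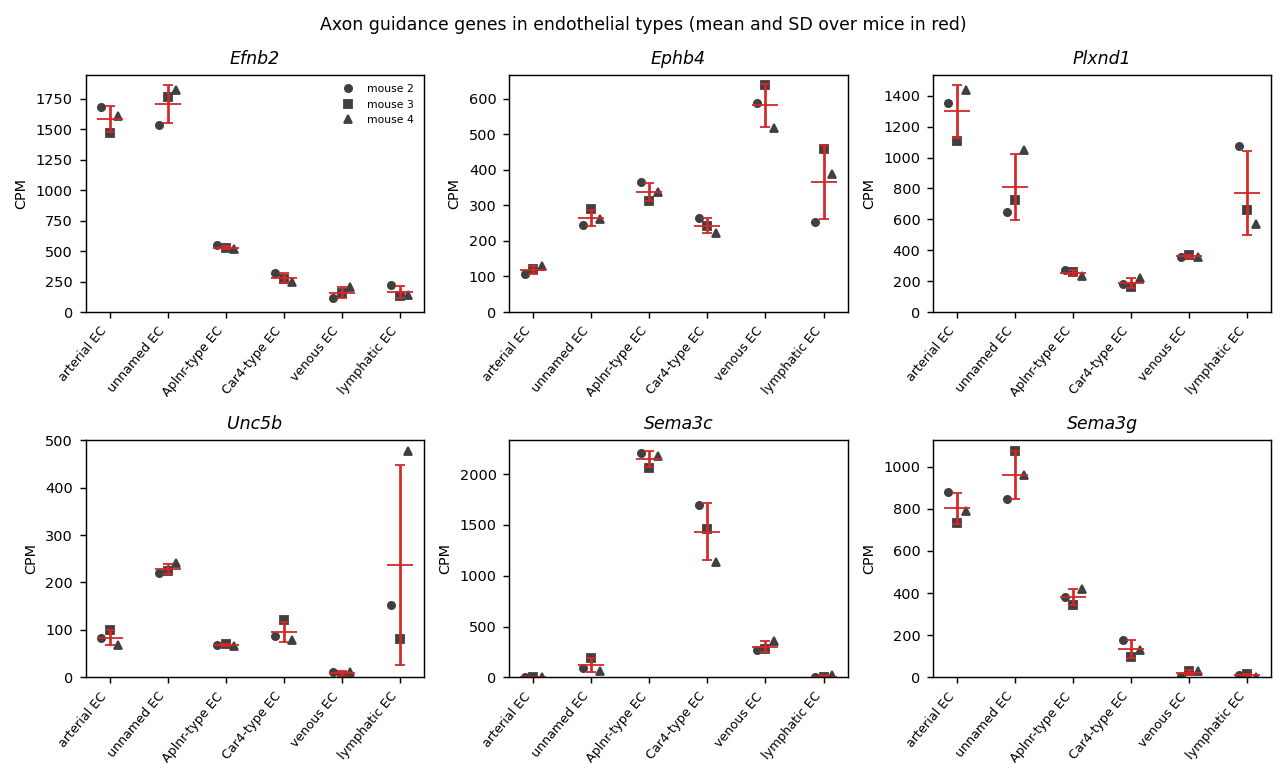
CPM of Efnb2, Ephb4, Plxnd1, Unc5b, Sema3c and Sema3g in 6 EC types, one point per mouse with the mean as a line; in lymphatic EC mice 3 and 4 had under 10 cells. Efnb2 and Sema3g peaked in the arterial and unnamed columns, Ephb4 at 581 CPM in the venous column and Sema3c at 2148 CPM in the Aplnr-type capillaries.

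Arterial EC also differed from the mean of both capillary types, with 12 members higher and 12 lower, where 10.6% and 10.3% of all genes were called. The largest positive differences were in Efna5, Sema5b and Sema4d, all of which were at 0 to 2 UMIs in a capillary type, and the largest negative ones in Sema3c, Sema5a and Efnb1. Sema3c was at 2204, 2059 and 2182 CPM in Aplnr-type and 1696, 1463 and 1136 CPM in Car4-type EC, at least 523-fold and 351-fold above the arterial floor. Sema5a was not counted in arterial EC, at least 9.95-fold below Aplnr-type and 13.4-fold below Car4-type EC. Sema4d had 14 arterial UMIs and 2 in Aplnr-type EC, a ratio of 48.8 with a counting interval of 11.2 to 442. With cells thinned to 1000 UMIs neither Sema5a (adjusted p = 0.0958) nor Sema4d (log2 fold change 0, adjusted p = 0.9999) was called. Sema5b had 1 UMI in Aplnr-type EC, a ratio of 76.6 with an interval of 11.1 to 3299, and DESeq2 did not call it (adjusted p = 0.52). Efnb2, Plxnd1, Ntn1, Ntn4, Sema3g and Efna1 were also higher in arterial EC, with Plxnd1 at 2.67 ± 0.13 and Efnb2 at 2.13 ± 0.16 on the log2 scale, and Robo4 was lower (-1.44 ± 0.32, edgeR adjusted p = 0.000524).

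The unnamed EC with Gja5, Gja4 and Hey1 among their leading genes sat near the arterial values for some members and not for others. Efnb2 was at 1531, 1766 and 1820 CPM there and Sema3g at 846, 1074 and 961 CPM, overlapping with arterial EC in both. Unc5b was at 229 ± 11.2 CPM, above each arterial mouse, and Plxnd1 at 649, 727 and 1051 CPM, below each. Sema3c was at 117 CPM and Efna5 at 43.1 ± 11.5 CPM, where arterial EC had no Sema3c UMI and 166 ± 49.6 CPM of Efna5. They counted as EC in the comparisons of classes and were in none of the comparisons of types. Lymphatic EC came to 23 cells, 5 to 11 per mouse, and were not tested. Of these 8 were marked as doublets, and no cluster was named lymphatic once marked doublets were removed. Lymphatic EC held Robo4 at 297 ± 152 CPM and Ephb4 at 366 ± 104 CPM.

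The 2 capillary types of the alveolus differed in 12 members. Of 52 tested, 6 were higher in Car4-type than in Aplnr-type EC and 6 lower, where 4.29% and 4.97% of all genes were called. Sema7a was at 186, 266 and 244 CPM in Car4-type and 37.0, 59.6 and 53.0 CPM in Aplnr-type EC (2.20 ± 0.23 on the log2 scale, edgeR adjusted p = 3.89e-10). No mouse overlapped. Ntn4 was at 61.2 ± 11.1 and 18.2 CPM (1.74 ± 0.34, adjusted p = 0.00019), but was not called with cells thinned to 1000 UMIs (0.60, adjusted p = 0.859). Sema3a had 11 UMIs in Car4-type and 2 in Aplnr-type EC, a ratio of 20.8 with a counting interval of 4.55 to 193 (adjusted p = 0.00837), but missed the threshold without mouse 3 (0.0573) and without mouse 4 (0.13), and its sign turned when cells were thinned to 1000 UMIs, to a log2 fold change of -1.27. Sema3f, Sema6a and Plxna2 were the other members higher in Car4-type EC.

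Sema3g was lower in Car4-type EC, at 177, 95.5 and 130 CPM against 382, 345 and 418 CPM in Aplnr-type EC, and no mouse overlapped (-1.54 ± 0.23 on the log2 scale, edgeR adjusted p = 2.52e-06), although DESeq2 gave an adjusted p of 0.317. Efnb2 was lower at 319, 272 and 244 CPM against 547, 521 and 518 CPM (-0.95 ± 0.20, adjusted p = 0.000631). Ntn1 was lower as well (-1.11 ± 0.29, adjusted p = 0.00793), with 36.4 and 76.2 CPM, but not past the threshold without mouse 2 (0.0761) or mouse 4 (0.174), nor at the clustering resolutions 0.4 (0.109) and 1.2 (0.0593), with the stricter filter on cells (0.125) or with thinned cells (0.484). Ephb4, Efna1 and Sema4c were called lower too. Of the Car4-type EC 74 of 168 had a median of 867 UMIs, and in the comparison of cells thinned to 1000 UMIs the count of members called was 7. The share of all genes called with thinned cells was not counted.

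Among mural cells, pericytes and smooth muscle cells differed in 24 of the 52 members, 8 higher and 16 lower in pericytes, where 12% and 13.6% of all genes were called. Slit3 on chr11:35121224-35708507 was at 196, 198 and 217 CPM in smooth muscle and had a single UMI in 135 pericytes, a ratio of 159 with a counting interval of 28.5 to 6305. Of the 135 pericytes 44 came from a cluster with a median of 783 UMIs and 91 from one with a median of 7865. Sema5a was at 434, 384 and 440.1 CPM in smooth muscle and 17.2, 73.8 and 81.1 CPM in pericytes (-3.14 ± 0.24 on the log2 scale, edgeR adjusted p = 2.18e-15). Both genes thus belonged to smooth muscle within the mural class. Epha3 had 3 UMIs in pericytes and 234 in smooth muscle, a ratio of 14.75 with a counting interval of 4.99 to 72.05. Unc5c had 2 and 303 UMIs, a ratio of 28.65 with an interval of 7.86 to 237.7. Plxna2, Epha1 and Sema3d had no UMI in pericytes and were at least 11.6-fold, 8.07-fold and 6.49-fold lower than in smooth muscle, and DESeq2 gave an adjusted p of 0.0654 for Sema3d. In the other direction Sema6d was at 227, 166 and 170 CPM in pericytes and 34.0 CPM in smooth muscle (2.36 ± 0.25, adjusted p = 2.10e-11), and Epha2 at 45.6 ± 14.8 and 12.2 CPM (1.77 ± 0.34). Robo4 had 13 UMIs in pericytes and none in 288 smooth muscle cells, at least 22.9-fold higher, and was at 149.7 ± 4.89 CPM in Aplnr-type EC.

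The fibroblasts were split by Slit2. It was at 920, 990 and 1019 CPM in Col13a1-type fibroblasts and at 49.9, 31.4 and 58.9 CPM in Col14a1-type fibroblasts (4.39 ± 0.18 on the log2 scale, edgeR adjusted p = 4.09e-25). Arterial EC came next among all types with 57.9 ± 15.7 CPM. A Slit2 UMI was found in 79.2% ± 7.01 of Col13a1-type cells (64.5% thinned to 1000 UMIs) and in 0.197% of B cells (0.0378% thinned), with median depths per mouse of 6713.5 to 13099.5 and 3839.5 to 4149 UMIs. The receptor Robo2 was at 374, 355 and 344 CPM in Col13a1-type, 294, 304 and 343 CPM in myofibroblasts and 68.8 ± 8.88 CPM in Col14a1-type fibroblasts (Col13a1-type against Col14a1-type 2.32 ± 0.22, adjusted p = 5.78e-12). Robo1 was highest in myofibroblasts at 77.6, 119 and 111 CPM, above Col13a1-type fibroblasts at 47.5 ± 12.4 CPM.

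Between Col13a1-type and Col14a1-type fibroblasts 12 members were higher and 15 lower, where 9.46% and 11.9% of all genes were called. The Col14a1-type cluster also held cartilage genes, Col2a1 and Acan among them. Epha1, an EphA receptor, was at 151, 125 and 124 CPM in Col13a1-type and 3.84 ± 4.96 CPM in Col14a1-type cells (4.73 ± 0.37 on the log2 scale, edgeR adjusted p = 5e-13), and its exons overlap Zyx. Plxnc1, the receptor of Sema7a, was at 94.2 ± 19.1 and 17.1 CPM (2.33 ± 0.37). The netrin Ntn1 and its receptor Unc5b were lower in Col13a1-type cells, while the netrin receptor Unc5c was higher there (1.04 ± 0.26, adjusted p = 0.00275). Ntn1 was at 11.2 CPM in Col13a1-type cells and 210.0, 184 and 241 CPM in Col14a1-type cells (-4.22 ± 0.31, adjusted p = 1.56e-15), Unc5b at 3.29 and 34.1 ± 29.2 CPM (-3.63 ± 0.54) and the receptor Epha4 at 5.59 and 50.4 CPM (-3.19 ± 0.52).

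Myofibroblasts, which lay down elastin at the tips of the septa, differed from Col13a1-type fibroblasts in 29 members, 14 higher and 15 lower, where 14% and 16% of all genes were called. The cells so named pooled a cluster of 451 led by Aspn and Hhip with a cluster of 356 led by Pdgfra and Agt. These clusters were not tested apart. Plxna4 was at 184, 216 and 221 CPM in myofibroblasts and 2.60 CPM in Col13a1-type cells (6.10 ± 0.34 on the log2 scale, edgeR adjusted p = 3.69e-21). Ntn4 was at 204, 222 and 183 CPM against 2.56 CPM (6.07 ± 0.40, adjusted p = 5.90e-18). Unc5b was at 120, 116 and 115 CPM against 3.29 CPM (5.07 ± 0.38). Ntn1 (3.84 ± 0.29) and Sema3c (3.73 ± 0.36) were higher in myofibroblasts too. In Col14a1-type fibroblasts, which were not tested against myofibroblasts, Plxna4 was at 11.2 CPM, Ntn4 at 8.61 CPM, Unc5b at 34.1 CPM and Sema3c at 125 CPM, each below its myofibroblast level, whereas Ntn1 at 212 CPM was not. Unc5c, Epha1, Slit3 and Slit2 were lower, with Unc5c at 1.36 CPM in myofibroblasts and 143, 151 and 211 CPM in Col13a1-type cells (-6.83 ± 0.35), and Slit3 at 3.71 CPM and 210, 180 and 162 CPM (-5.64 ± 0.26).

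In the alveolar epithelium 4 of the 7 class 3 semaphorins, Sema3e, Sema3a, Sema3f and Sema3b, were higher in AT1 cells, the flat cells that face the capillaries. The other members of that class did not pass, with Sema3c at 21.3 CPM in AT1 and 18.1 CPM in AT2 cells, Sema3g at 1.53 and 1.25 CPM and Sema3d at 0 and 4 UMIs. Of the 52 members 14 were higher in AT1 than in AT2 cells and 9 lower, where 17.2% and 16.3% of all genes were called. Sema3e was at 934, 714 and 941 CPM in AT1 and 6.22, 6.10 and 12.2 CPM in AT2 cells (6.45 ± 0.19 on the log2 scale, edgeR adjusted p = 2.37e-28). Sema3a was at 438, 298 and 416 CPM in AT1 and 5.84 ± 2.46 CPM in AT2 cells (5.74 ± 0.22, adjusted p = 2.89e-22). AT1 and AT2 cells did not overlap for either gene, and mouse 3 was the lowest AT1 value for both. A Sema3e UMI was found in 68.7% ± 10.6 of AT1 cells (57.9% thinned) and 0.104% of B cells (0% thinned), at median depths per mouse of 6661 to 16870 and 3839.5 to 4149 UMIs. Club cells held Sema3e at 92.1 ± 17.4 CPM. Ntn4 was also higher in AT1 cells, at 80.9 ± 18.3 against 2.37 CPM (4.75 ± 0.31), as were Plxna1 (3.12 ± 0.17), Sema3f (2.76 ± 0.22) and Sema3b (2.68 ± 0.16).

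AT2 cells, which make surfactant, were higher in Slit3 at 14.0, 24.4 and 19.8 CPM against 4.70 CPM in AT1 cells (-2.58 ± 0.44 on the log2 scale, edgeR adjusted p = 4.49e-06). Sema4c was at 25.8 CPM in AT2 and 7.92 CPM in AT1 cells (-2.26 ± 0.30), and Epha7 at 89.0, 86.8 and 90.1 CPM against 28.1 ± 9.06 CPM (-2.00 ± 0.23, adjusted p = 7.96e-10). The mice of AT1 and AT2 cells did not overlap for Epha7. Robo2 was low in both, at 1.74 and 5.67 CPM (-2.09 ± 0.70, adjusted p = 0.0174), and its call was lost without mouse 4 (adjusted p = 0.223) and with thinned cells (adjusted p = 0.377). Sema4f, a leading epithelial member, and Sema4a were also higher in AT2 than in AT1 cells.

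**Figure D4:**
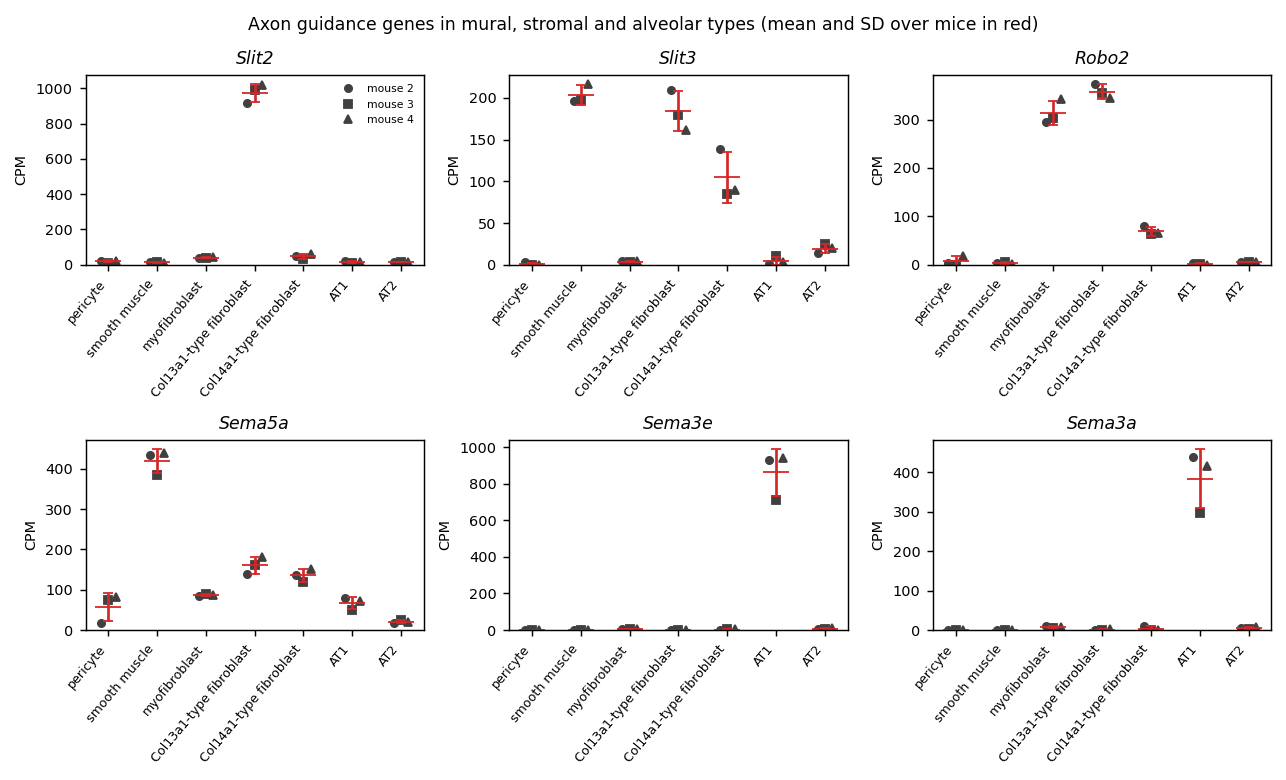
CPM of Slit2, Slit3, Robo2, Sema5a, Sema3e and Sema3a in 5 mural and stromal types and in AT1 and AT2 cells, one point per mouse with the mean as a line. Slit2 stood at 976 CPM in Col13a1-type fibroblasts against at most 46.8 CPM in the other types shown, Slit3 and Sema5a were highest in smooth muscle at 204 and 419 CPM, and Sema3e and Sema3a in AT1 cells at 863 and 384 CPM. For Slit3 the mice of smooth muscle overlapped with those of Col13a1-type fibroblasts, at 184 CPM.

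Among immune cells 6 members separated lymphoid from myeloid types, 1 higher and 5 lower in lymphoid cells, where 26% and 17.2% of all genes were called. The count was 12 with the stricter filter on cells, 14 at clustering resolution 0.4, 12 with DESeq2 and 3 with cells thinned to 1000 UMIs. The share of all genes called was not counted under these settings. Sema4b was the member higher in lymphoid cells (1.85 ± 0.33 on the log2 scale, edgeR adjusted p = 3.94e-06). B cells held it at 166, 198 and 173 CPM and T cells at 43.0 ± 13.2 CPM, whereas NK cells were at 12.8 CPM, close to neutrophils at 10.8 CPM. Within the lymphoid types the B cells of each mouse were thus the highest. Sema4a was lower in lymphoid cells (-1.98 ± 0.17, adjusted p = 2.48e-14), with 194, 260 and 234 CPM in neutrophils, 190 ± 5.31 CPM in dendritic cells and 2.10 CPM in B cells, but 191 ± 20.7 CPM in NK cells.

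The other members called were semaphorin receptors, all lower in lymphoid cells. Plxnb2 was at 296, 337 and 208 CPM in interstitial macrophages and 20.4 CPM in B cells, and T and NK cells held a single UMI each (-3.93 ± 0.49 on the log2 scale, edgeR adjusted p = 1.04e-09), but clustering at resolution 1.2 or thinning to 1000 UMIs ended the call. Plxna1 (-2.66 ± 0.43), Plxnd1 (-1.64 ± 0.27) and Plxnc1 (-0.85 ± 0.24) were lower in lymphoid cells too. Sema4d did not pass, and was at 193 ± 21.2 CPM in neutrophils, 159 ± 22.4 CPM in interstitial macrophages, 126 ± 5.65 CPM in T cells and 89.3 ± 11.4 CPM in B cells. Its neighbors in this order overlapped in part, and each of these types was above every type outside the immune class.

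**Figure D5:**
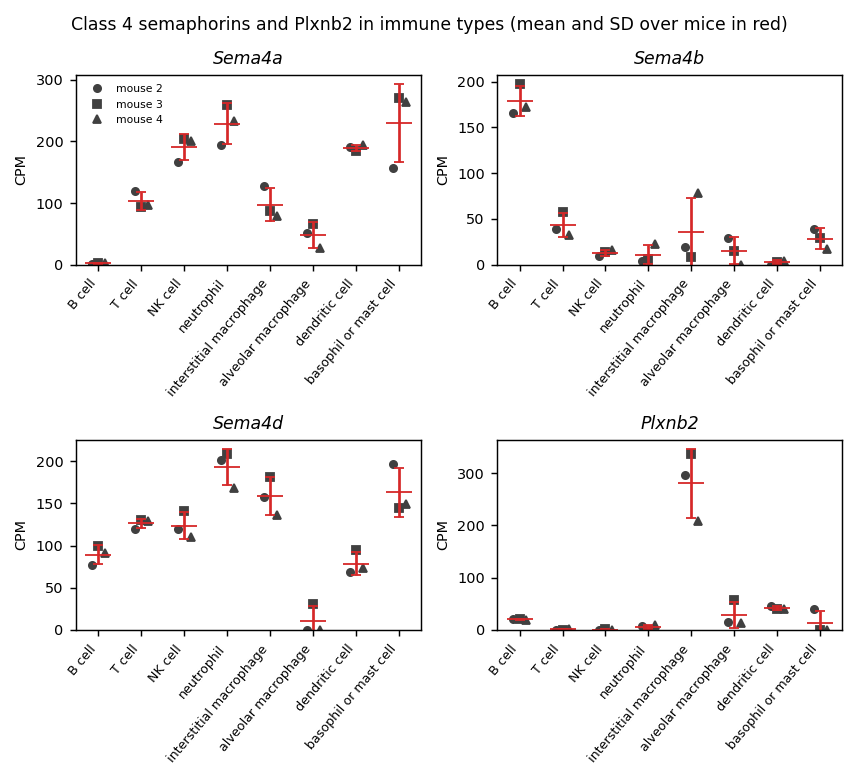
CPM of Sema4a, Sema4b, Sema4d and Plxnb2 in 8 immune types, one point per mouse with the mean as a line. Sema4b was highest in B cells at 179 CPM, Sema4a was at 2.10 CPM in B cells against 229 CPM in neutrophils, and Plxnb2 was highest in interstitial macrophages at 280 CPM.

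The coreceptors and signaling partners of these families, a list of 54 further genes of which 47 were tested by class, were called in every class. In EC 27 were higher and 13 lower, which is 57.4% and 27.7% beside 29.4% and 27.6% of all genes. In mural cells 23 and 15 were called, 48.9% and 31.9% beside 27% and 23.8%, and in stroma 23 and 13, 48.9% and 27.7% beside 30% and 27.8%. The epithelial counts of 17 and 22 were 36.2% and 46.8% beside 36.8% and 31.2%, and the immune counts of 15 and 27 were 31.9% and 57.4% beside 37.8% and 38.1%. The neuropilins Nrp1 (2.40) and Nrp2 (1.77), coreceptors of the class 3 semaphorins, were higher in EC on the log2 scale, as was Srgap1, which acts downstream of Robo (3.63). Nrp1 was higher in Car4-type than in Aplnr-type EC (1.34), where Sema3g was lower. Neo1, the netrin and Rgm receptor neogenin, was lower in EC (-2.83) and higher in stroma (2.90), and its ligand Rgma was higher in mural cells (3.82). Between arterial and venous EC 2 of 43 were higher and 7 lower, 4.65% and 16.3% beside 4.7% and 5.08% of all genes. Between AT1 and AT2 cells 15 were higher and 7 lower, 34.9% and 16.3% beside 17.2% and 16.3%, with the small GTPase Rnd1, which binds plexins, at 6.26.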

How the data were processed

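Single cells of 3 whole lungs were measured by 3′ RNA sequencing. The deposited values are raw UMI counts per gene and cell, made by the authors with Cell Ranger 3.0.2 on the mm10 build per the submitters' processing notes. The annotation and the use of strand in counting are not given in the sources used here. Gene positions and overlaps are from GENCODE vM21 (GRCm38), and 65 members were located.

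Cells under 200 detected genes or above 20% mitochondrial UMIs were dropped, as the study's methods name no filter. Cells were normalized with sctransform 0.4.2 and clustered in Seurat 5.3.0 at resolution 0.8 on 2970 variable genes and 30 principal components (20 for the second round in EC), with the 30 members among the 3000 variable genes removed. Clusters were named by mean log2 fold of at least 1 over a marker list, with at least 3 markers detected, and these thresholds were chosen after seeing the data. Marked doublets (156, by scrublet in scanpy 1.11.5 at 0.8% per 1000 cells) were kept and removed in an alternative, as the caller's own threshold marked only 8 to 19 cells per mouse. The 3 libraries were distinct (chi-square per degree of freedom 9.12 to 38.1 over genes).

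UMIs were summed per mouse and class, or per mouse and type with at least 10 cells, and tested with edgeR 4.0.16 in R 4.3.3 (TMM, filterByExpr, quasi-likelihood, Benjamini-Hochberg over all genes). Clusters were drawn from other genes of the same cells, so the tests describe types so defined. On simulated counts with a log2 change of 2 in 200 genes, 100% were recovered for EC against the other classes (13244 genes) and 70% for arterial against venous EC (10263 genes), with 0.115% and 0.0397% of unchanged genes called. The changed genes were drawn from those at or above the median total count, with a single dispersion for all genes. Recovery of genes at a few UMIs was therefore not measured.

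Sums with the same number come from the same mouse. Their deviations from the class means correlated at -0.0655 to 0.272 over 30 pairs, 17 of them over 0.1, and blocking on the mouse was an alternative. DESeq2 1.42.0 and the other alternatives are given at the end. Members, lists and comparisons were chosen with earlier results of these data known. In each class comparison the 5 called members with the largest upward fold change were named, and in each comparison of types up to 3 called members per direction, among members with at least 100 UMIs, besides Efnb2, Ephb4, Robo4, Unc5b, Plxnd1, Sema3c, Sema3e, Sema3g, Slit2, Slit3, Robo1, Robo2, Ntn1 and Ntn4. Other members named in a sentence were chosen after their values were seen. Folds against a group without UMIs are lower bounds from 3 UMIs over that group, and counting intervals are exact at 95%.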

Additional observations from a re-analysis of the deposited data

Results flagged for a closer look

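A few members stood higher in clusters outside the 5 classes than in any class, and these cells enter no comparison. A member was picked out where the low end of its counting interval lay above the mean of the highest class. Class means pool several types, and single types could lie closer. The glial-like cluster held 27 cells and 252322 UMIs. There Sema3b, a secreted semaphorin, was at 535 CPM (95% exact counting interval 449 to 633), with a UMI in 24 of 27 cells, against 69.5 CPM in epithelium, the highest class. AT1 cells alone held Sema3b at 302.5 CPM. Sema4c was at 182 CPM, against at most 79.9 CPM in a class and 109 CPM in pericytes. The Eph receptors Ephb6, Epha5 and Ephb2 were at 166, 91.2 and 83.2 CPM, against at most 22.6, 4.83 and 12.9 CPM in a class. Col14a1-type fibroblasts held Ephb2 at 57.7 CPM, inside its glial counting interval of 51.5 to 127. An unnamed cluster of 159 cells outside the classes, led by Uchl1, Pcsk1n and Sncg, held Epha5 at a mean of 70.3 CPM. This was inside the glial counting interval of Epha5, 57.8 to 137, and that cluster was not among those searched. Plxna3 at 27.7 CPM and Sema4g at 39.6 CPM rested on 7 and 10 UMIs. All are pooled over the mice, with 8 to 10 glial-like cells in each.

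The platelet-like cluster held 31 cells and 85560 UMIs. Mouse 2 gave 63396 of these UMIs, mouse 3 gave 10481 and mouse 4 gave 11683, at medians of 694.5 to 776 UMIs per cell. Plxna4, a receptor of class 3 and class 6 semaphorins, was at 596 CPM there (95% exact counting interval 444 to 784), from 51 UMIs in 11 of the 31 cells, against 146 CPM in stroma, the highest class. Arterial EC alone held Plxna4 at 231 CPM. Neither cluster was tested, and intervals cover counting error only.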

How the results depend on the processing

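Limits. All tests rest on 3 mice of 1 condition, arterial EC on 59 cells, and class levels depend on which types fill the class. Genes at a few UMIs, such as Sema5b, Robo2 and Sema3a in EC, lie at the limit of depth.

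Of 182 recomputed counts of members called, 166 stayed within 1.5 times the reported count. The share of all genes called was not counted under any alternative. A rise or fall in these counts therefore cannot be read as particular to the members. Thinning each cell to 1000 UMIs, which leaves fewer UMIs to test, gave 25 members called in EC, 18 in mural cells, 27 in stroma and 27 in epithelium, 7 between arterial and venous EC, 7 between the capillary types, 13 between arterial EC and capillaries, 4 between pericytes and smooth muscle, 4 between the fibroblast types, 8 between myofibroblasts and Col13a1-type fibroblasts, 6 between AT1 and AT2 cells and 3 between lymphoid and myeloid types. The last count was 12 under a filter of 500 genes and 10% mitochondrial UMIs per cell, 14 at resolution 0.4 and 12 with DESeq2, and the cause was not tested.

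Without any 1 mouse the counts were 43 to 46 in EC, 34 to 38 in mural cells, 45 to 50 in stroma, 40 to 43 in epithelium and 46 to 49 in immune cells. They were 13 to 17 for arterial against venous EC, 7 to 10 for the capillary types (7 without mouse 2), 22 to 24 for arterial EC against capillaries, 20 to 22 for pericytes, 20 to 23 for the fibroblast types, 25 to 28 for myofibroblasts, 19 to 23 for AT1 cells and 6 to 7 for lymphoid types.

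With the mouse as a replicate block the counts were 50 in EC, 42 in mural cells, 50 in stroma, 45 in epithelium and 49 in immune cells, and 16 between arterial and venous EC. Among named results the block took away the call of Robo2 between arterial and venous EC. It newly called Sema3e lower in mural cells (edgeR adjusted p = 0.00739) and Slit2 higher in epithelium (adjusted p = 0.0212), and it changed no other call.

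Where an alternative filtered out a named member or gave it no adjusted p, no value was counted. Of the 1989 recomputed values of single members 1884 were on the same side of the threshold. Of the others 79 missed it (24 of these with cells thinned to 1000 UMIs), 24 newly passed it and 2 changed sign with a call in either fit. Those 2 were Robo2 in mural cells at resolution 1.2 (log2 fold change 0.0239) and Sema3a between the capillary types when thinned (-1.27). Changes of sign without a call in either fit were counted among the 1884. Slit2 between arterial and venous EC, for example, was at 0.63 in the main fit and as low as -0.82 in an alternative. In the main fit Sema3e was called lower in EC (log2 fold change -2.74, edgeR adjusted p = 0.0453). An alternative chosen after seeing the data left out an EC sub-cluster with more stromal UMIs. It took away this call (adjusted p = 0.0514). It newly called Robo2 lower in EC (log2 fold change -1.155, edgeR adjusted p = 0.000281) and Slit2 higher in epithelium (adjusted p = 0.0207). The Sema3e call in EC was also lost with the stricter filter (0.0927), with thinned cells (0.865), without mouse 2 (0.141) and without mouse 3 (0.9998).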
